A study of Mus musculus with 2 samples.

Results

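Stefins are small cytosolic proteins that block papain-like cysteine proteases, and 8 stefin genes of the 31053 genes counted were examined in periodontal tissue of mice with and without ligature-induced periodontitis (LIP). They were *Stfa1*, *BC100530*, *Stfa2*, *Stfa2l1*, *Stfa3*, *Gm5483* and *Gm5416*, which make up most of the stefin A gene cluster, and *Cstb*, which encodes stefin B (cystatin B) and lies on another chromosome. The genes were taken by symbol and had been chosen by their ratio of LIP over control in neutrophils, where several of them were higher in the LIP library. The difference between libraries in neutrophils is therefore given as a description, without a test. Single-cell RNA-seq was available for 2 libraries, 1 of untreated mice (control) and 1 of mice with LIP. All mice were C57BL/6 of WT genotype and 8 weeks old. Cells came from the gingiva and the surface of the alveolar bone. In the LIP group a silk ligature had been tied around a molar and tissue was taken 7 days later. Cells of 5 LIP mice were pooled, and the number of control mice is not given in the sources used here. With 1 library per group there was no replicate, so no p-value is given, and the treatment, the pool of mice and the run cannot be told apart.

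Stefins are tight-binding inhibitors of lysosomal cathepsins that have reached the cytosol or the outside of the cell. Stefin A is a protein of squamous epithelium and of granulocytes, and stefin B is made by most cell types. In the mouse, the stefin A gene has been copied several times side by side, and some of the copies are used by neutrophils, the phagocytes that fill the inflamed gingival crevice and carry both cathepsins and serine proteases.

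The 7 stefin A members lay within 299 kb of chromosome 16, at chr16:36156811-36455392 of GRCm38, the build of which mm10 is the browser name. On the plus strand were *Stfa2l1* (ENSMUSG00000059657, chr16:36156811-36161953), *Gm5483* (ENSMUSG00000079597, chr16:36184212-36188111), *Gm5416* (ENSMUSG00000094733, chr16:36210403-36217788) and *Stfa1* (ENSMUSG00000071562, chr16:36276951-36285373). On the minus strand were *BC100530* (ENSMUSG00000071561, chr16:36359382-36367748), *Stfa2* (ENSMUSG00000022902, chr16:36403992-36408457) and *Stfa3* (ENSMUSG00000054905, chr16:36450537-36455392). *Cstb* (ENSMUSG00000005054, chr10:78425669-78427622) lay on the plus strand. All 8 genes are protein coding with 3 exons, and their reading frames held 97 codons in *Stfa1*, *BC100530*, *Gm5483* and *Gm5416*, 103 in *Stfa2*, *Stfa2l1* and *Stfa3* and 98 in *Cstb*.

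How alike the copies are decides how well short reads can be assigned to them, so the coding stretch around the conserved hairpin loop, which in stefins reaches into the active site cleft of the protease, is printed for all 8 members. Capitals mark the 15 bases of the loop, with 24 coding bases on each side, 5′ to 3′ on the coding strand. Each stretch crosses an intron and was assembled from the GENCODE M21 coding exons of GRCm38.
Stfa1: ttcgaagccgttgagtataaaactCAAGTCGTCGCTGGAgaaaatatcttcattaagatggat
BC100530: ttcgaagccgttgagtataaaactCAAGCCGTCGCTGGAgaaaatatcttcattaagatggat
Stfa2: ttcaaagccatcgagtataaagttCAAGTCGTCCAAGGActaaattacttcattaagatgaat
Stfa2l1: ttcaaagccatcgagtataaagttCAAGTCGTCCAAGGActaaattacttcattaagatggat
Stfa3: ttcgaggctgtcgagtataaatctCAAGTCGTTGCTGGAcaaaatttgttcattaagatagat
Gm5483: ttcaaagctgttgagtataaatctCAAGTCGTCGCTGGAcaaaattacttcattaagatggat
Gm5416: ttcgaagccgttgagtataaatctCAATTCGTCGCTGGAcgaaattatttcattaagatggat
Cstb: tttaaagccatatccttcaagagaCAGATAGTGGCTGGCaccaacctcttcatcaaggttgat

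*Stfa1* and *BC100530* were 97.9% identical over their coding bases and differed at 6 of 291 positions, counted from 1 at the first coding base. With *Stfa1* as the reference these were T9C, T53A, A61G, T140C, T269A and A276T, of which T140C falls in codon 47, inside the loop. *Stfa2* and *Stfa2l1* were 96.4% identical, with 11 of 309 positions differing and the same 15 loop bases. The other pairs of stefin A members shared 77.7% to 89.7% of their coding bases, and *Cstb* shared 56.9% to 64.1% with them. A further copy in the cluster, *2010005H15Rik*, was 96.9% identical to *Gm5483* and had the same printed stretch. Cell Ranger keeps a read only where it maps to 1 gene. In the last 400 transcript bases, where 3′ reads mostly fall, 27.7% of the 91-base windows of *BC100530*, 15.5% of those of *Gm5483*, 12.3% of those of *Stfa1* and 2.26% of those of *Stfa2* and *Stfa2l1* were also found in another gene. None were shared for *Stfa3* and *Cstb*. None were shared for *Gm5416* either, but its annotated transcript has only 294 bases, 291 of them coding. Any sequence past that end was not compared. The read length is not given in the sources used here, and the counts of *BC100530*, *Stfa1* and *Gm5483* in particular are uncertain to this extent.

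The stretches just before the transcription starts were also alike, and they are shown for 4 members that led different cells and for *Gm5416*. Each is the 90 bases before the RefSeq start (GRCm38.p6), 5′ to 3′ in the direction of the gene, and capitals mark TTTAAAA.
Stfa2l1: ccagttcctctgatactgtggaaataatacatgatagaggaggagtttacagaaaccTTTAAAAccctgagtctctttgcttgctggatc
Gm5483: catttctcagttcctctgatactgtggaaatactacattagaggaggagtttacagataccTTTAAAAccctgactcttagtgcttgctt
Stfa1: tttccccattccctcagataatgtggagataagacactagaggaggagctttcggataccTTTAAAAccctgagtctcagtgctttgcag
Stfa3: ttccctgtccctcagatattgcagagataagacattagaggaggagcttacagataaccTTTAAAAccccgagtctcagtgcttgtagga
Gm5416: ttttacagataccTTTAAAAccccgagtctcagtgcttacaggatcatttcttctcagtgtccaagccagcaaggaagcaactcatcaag

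Their positions are chr16:36156721-36156810 for *Stfa2l1*, chr16:36184122-36184211 for *Gm5483*, chr16:36277058-36277147 for *Stfa1*, chr16:36455393-36455482 for *Stfa3* and chr16:36210313-36210402 for *Gm5416*. The stretches of *Stfa1* and of *Stfa2*, which is not printed, lie inside the gene positions given above. For these genes the RefSeq start is farther into the gene than the GENCODE start. Of the 8 members, 6 had a promoter entry, *Gm5483* under the symbol *Cstdc4* and *Gm5416* under *Csta3*, and all 6 held TTTAAAA on either strand, against 804 of 32851 promoters (2.45%). It began 29 to 33 bases before the start in 5 of the 6, a placement (same strand, within 40 to 15 bases) that 165 of the 32851 promoters had (0.502%), and 77 bases before it in *Gm5416*. The sequence GGAGGAG was in 5 of the 6 and in 7.39% of all promoters, and both of these motifs were picked after the sequences had been read. Of motifs named for neutrophil factors, the C/EBP-type TTGCNNAA (2.95% of promoters) and the STAT-type TTCNNNGAA (2.28%) were in none of the 6, and the PU.1 core GAGGAA (8.93%) was in 3. Matches of different motifs did not overlap in the 6 stretches, and a match is a run of letters and not a bound site. Aligned over the whole stretches, *Stfa2l1* and *Gm5483* were 92.9% identical, the other pairs without *Gm5416* 78.4% to 88.5%, and pairs with *Gm5416*, whose TTTAAAA lies farther from the start, 47.7% to 58.4%. The stretches were also laid on TTTAAAA without gaps, over the 42 bases around it that all 6 hold. Pairs with *Gm5416* were then 76.2% to 83.3% identical and the other pairs 66.7% to 95.2%. The bases of TTTAAAA itself are among the 42 and match in every pair by construction. These values thus compare pairs with each other and not with the whole stretches. Pairs with *Gm5416* lay within the range of the others, so its low whole-stretch values go with the place of its RefSeq start.

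After filtering, 883 control cells and 936 LIP cells were kept, with 13407122 and 10560109 UMIs (unique molecular identifiers, each standing for 1 captured transcript) and medians of 10845 and 5595 UMIs per cell. The libraries shared 2 cell barcodes, 1 of them among kept cells, and the doublet caller marked 4 control cells and 1 LIP cell, which were retained. Neutrophil-like cells were the clusters led by neutrophil markers. They made up 53 control cells (6.00%, median 6494 UMIs) and 322 LIP cells (34.4%, median 3867 UMIs). Levels are in CPM, which is a gene's UMIs divided by all UMIs of the class in that library and multiplied by 1000000. They are not divided by gene length because the 3′ chemistry counts 1 tag per transcript. All intervals are exact 95% intervals for counting error alone. Where a few cells hold most UMIs of a gene they are too narrow, so the number of cells and the highest cell stand beside them.

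Stefin A transcripts were mainly in neutrophil-like cells, and most of them were in the LIP library. Summed over the 7 stefin A members, neutrophil-like cells held 314 of 387 control UMIs (81.1%) and 4764 of 5107 LIP UMIs (93.3%). *Cstb* was spread more widely, with 82 of 3652 control UMIs (2.25%) and 1098 of 5274 LIP UMIs (20.8%) in neutrophil-like cells. Mesenchymal-like cells, which are not known to use stefin A genes, had a stefin A UMI in 0 of 111 control cells (with the floor of 3 counts, 0 cells allow up to 2.70%) and in 4 of 57 LIP cells (7.02%), at median depths of 11729 and 21351 UMIs.

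**Figure D1:**
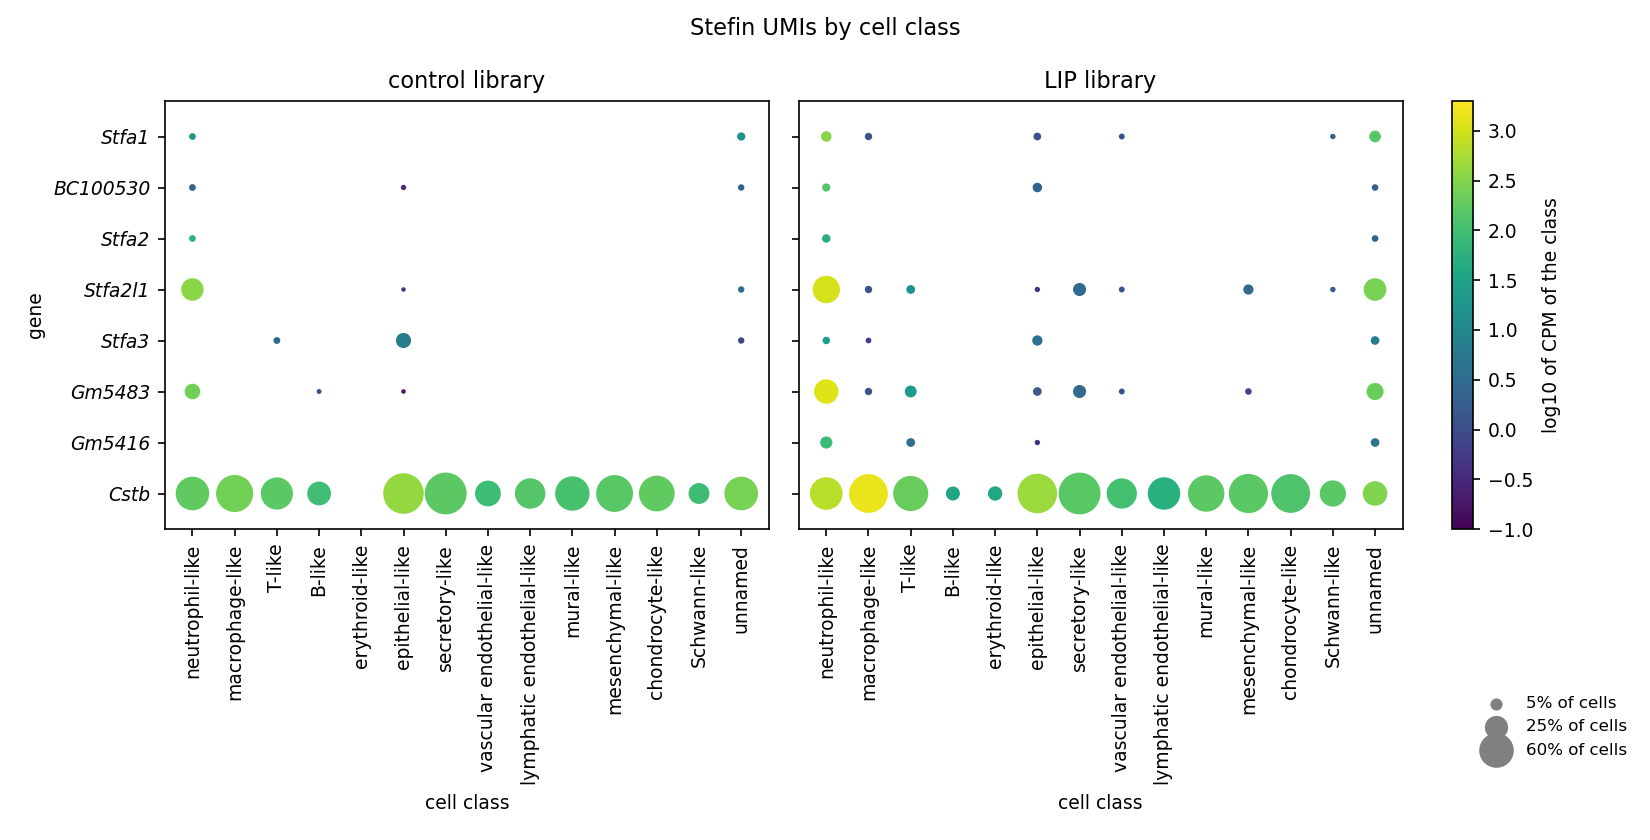
Dot grid of the single stefin A members and *Cstb* in each cell class of the control and LIP libraries. Dot size shows the share of cells with a UMI, and colour shows the level in CPM on a log scale. The stefin A sum, which is not drawn, is highest in neutrophil-like cells of both libraries (672 and 2943 CPM). *Cstb* reaches its highest level in LIP macrophage-like cells (1446 CPM).

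In neutrophil-like cells the stefin A sum was 672 CPM (599 to 750) in control and 2943 CPM (2860 to 3028) in LIP, a 4.38-fold difference (log2 2.13, 1.97 to 2.30). Of the 7 members with at least 50 UMIs over both libraries, 6 were at least 2-fold higher in LIP and none was 2-fold lower. This contrast chose the members, and nothing is read from the count. Among all 3201 genes with at least 50 UMIs in these cells, 12.2% were at least 2-fold higher and 3.06% at least 2-fold lower, with a median log2 ratio of 0.03. The 1 member of the 7 that did not reach 2-fold was *Stfa2* at log2 -0.35, and the lowest of the 6 was *Stfa2l1* at log2 1.56.

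**Figure D2:**
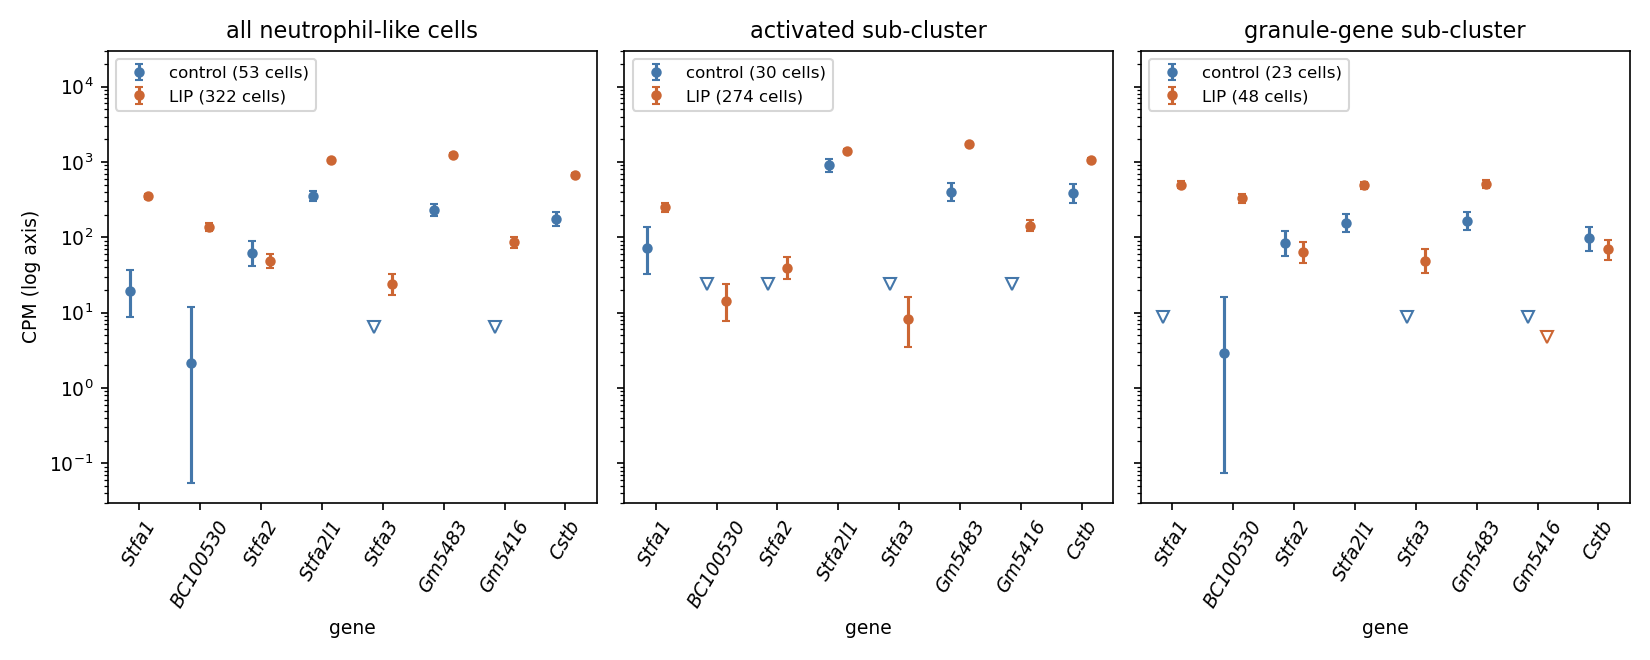
CPM of the 8 members on a log axis in all neutrophil-like cells and in their activated and granule-gene sub-clusters, control beside LIP, with exact 95% counting intervals. Open triangles mark genes with 0 UMIs at the level of 3 UMIs. *Gm5483*, *Stfa2l1* and *Cstb* are the 3 highest genes in LIP neutrophil-like cells, and *Stfa2* is the only member whose LIP value is below its control value there.

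*Gm5483* and *Stfa2l1*, neighbours at one end of the cluster, carried most of the stefin A signal. *Gm5483* had 108 UMIs in 7 of 53 control cells and 2010 UMIs in 108 of 322 LIP cells, which gave levels of 231 CPM (189 to 279) and 1242 CPM (1188 to 1297). The log2 ratio was 2.43 (2.15 to 2.72), and the share of cells with a UMI was 13.2% in control and 33.5% in LIP. The LIP cells that held *Gm5483* ranged from 1 UMI to 164, with a median of 9.5, against a highest cell of 49 and a median of 14 in control. Among cells that held *Gm5483*, the median level was 2647 CPM in control, over only 7 cells, and 2455 CPM in LIP, while their pooled level was 1396 CPM and 4103 CPM. The top control cell held 45.4% of the control UMIs, and without the top cell of each library, a choice made after the data were seen, the log2 ratio was 3.16.

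*Stfa2l1* was the stefin A member found in the most cells. It had 167 UMIs in 15 control cells (28.3%) and 1710 UMIs in 137 LIP cells (42.5%), or 357 CPM (305 to 416) and 1056 CPM (1007 to 1108), with a log2 ratio of 1.56 (1.33 to 1.80). The median over cells with a UMI was 8 in control and 7 in LIP, and the highest cells held 49 and 78. No LIP cell held more than 4.56% of the *Stfa2l1* UMIs of the class, the lowest such share of any stefin A member.

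*Stfa1* and *BC100530*, the 97.9% identical pair, had high ratios that rested on few cells. *Stfa1* had 9 UMIs in 1 control cell and 564 UMIs in 18 LIP cells (5.59%), with levels of 19.2 CPM (8.80 to 36.5) and 348 CPM (320 to 378) and a log2 ratio of 4.18 (3.24 to 5.31). Its highest LIP cell held 166 UMIs, and 10 cells held 97.7% of the LIP total. A further 19 control UMIs of *Stfa1* were in 2 cells of a cycling cluster without a class name, 18 of them in 1 cell, and with classes set by a per-cell marker vote, which takes in these cells, the log2 ratio was 2.80. *BC100530* had 1 UMI in control and 222 UMIs in 10 LIP cells (3.11%), or 2.14 CPM (0.0541 to 11.9) and 137 CPM (120 to 156), with a log2 ratio of 6.00 (3.51 to 11.3). A single LIP cell held 144 of its UMIs (64.9%), and the next highest held 46 and 15. These ratios therefore describe a handful of cells, and with the top cell of each library left out, a choice made after the data were seen, the *BC100530* ratio was at least log2 2.88 against a control at 0.

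*Gm5416* and *Stfa3* had no UMI in control neutrophil-like cells. *Gm5416* had 140 UMIs in 25 of 322 LIP cells (7.76%), or 86.5 CPM (72.7 to 102), and was at least 13.5-fold higher than a control level set at the floor of 3 UMIs over the group. A single cell held 48 of these UMIs (34.3%). *Stfa3* had 39 UMIs in 8 LIP cells (2.48%), or 24.1 CPM (17.1 to 32.9), at least 3.75-fold higher by the same floor, and 24 of the 39 were in 1 cell, without which the bound was log2 0.53. *Stfa3* stayed under the minimum of 50 UMIs, so it is in none of the counts over all genes.

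*Stfa2* was not higher in the LIP library. It had 29 UMIs in control, all in 1 cell, and 79 UMIs in 11 LIP cells, of which 36 (45.6%) were in 1 cell. The levels were 62.0 CPM and 48.8 CPM, and the log2 ratio was -0.35 with an interval that includes 0 (-0.98 to 0.32). With 1 control cell holding every UMI, the control level rests on that cell: without the top cell of each library, chosen after seeing the data, the ratio was at least log2 2.02.

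*Cstb*, the stefin of chromosome 10, differed in amount more than in the share of cells. It had 82 UMIs in 34 of 53 control cells (64.2%) and 1098 UMIs in 195 of 322 LIP cells (60.6%). Its level was 175 CPM (139 to 218) in control and 678 CPM (639 to 720) in LIP, with a log2 ratio of 1.95 (1.63 to 2.29). The highest control cell held 8 UMIs and the highest LIP cell 47. With every cell thinned to 1000 UMIs, the share of cells with *Cstb* was 22.6% in control and 36.3% in LIP, so the near equal shares of the full data went with the deeper control cells.

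**Figure D3:**
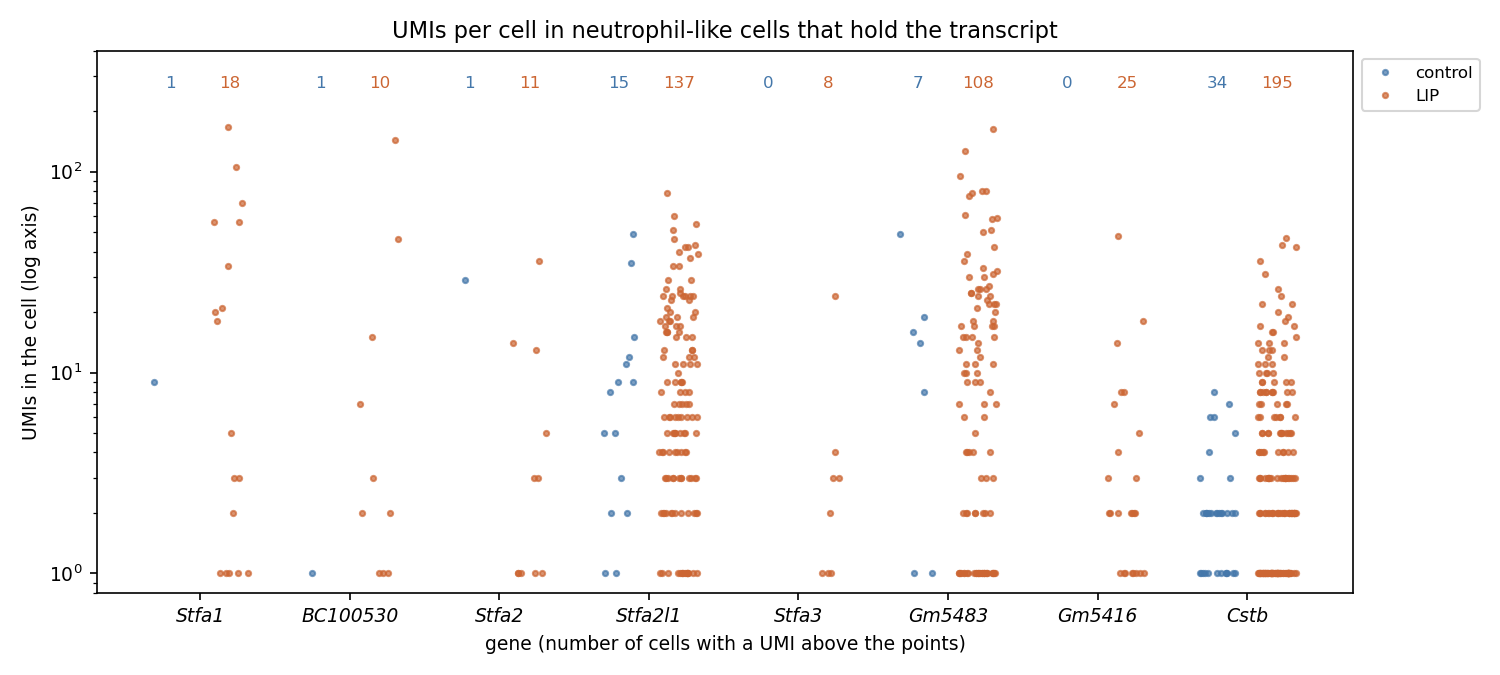
UMIs per cell, on a log axis, in every neutrophil-like cell that holds at least 1 UMI of a member, control beside LIP, with the number of such cells above the points. *Stfa2l1*, *Gm5483* and *Cstb* are spread over many LIP cells (137, 108 and 195), and *Stfa1*, *BC100530*, *Stfa2* and *Stfa3* over 8 to 18.

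Ordered by level, LIP neutrophil-like cells ran from *Gm5483* through *Stfa2l1*, *Cstb*, *Stfa1*, *BC100530*, *Gm5416* and *Stfa2* to *Stfa3*. The counting intervals of neighbours did not overlap, but they leave out the spread between cells. A single LIP cell held 64.9% of the *BC100530* UMIs and 61.5% of those of *Stfa3*, so the order of the lower members is not settled. The members also differ in how many of their windows are found in another gene. Control cells ran from *Stfa2l1* through *Gm5483*, *Cstb*, *Stfa2* and *Stfa1* to *BC100530*. There, *Gm5483* and *Cstb* had overlapping intervals, as did *Stfa1* and *BC100530*, and *Gm5416* and *Stfa3* were both at 0.

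**Figure D4:**
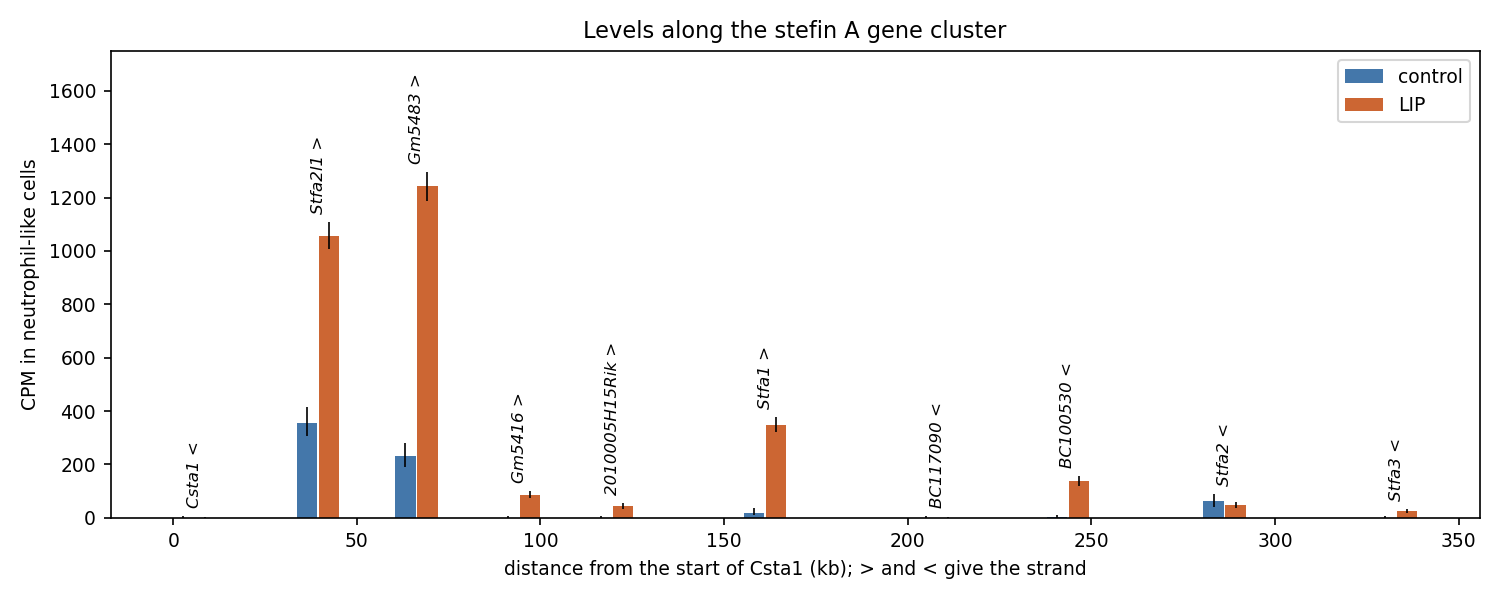
CPM in neutrophil-like cells of the genes along the stefin A cluster, placed by distance in kb from the start of *Csta1*, control beside LIP, with exact 95% counting intervals and the strand of each gene. The tallest bars are the neighbours *Stfa2l1* and *Gm5483*, and *Csta1* and *BC117090* are at or near 0 in both libraries.

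Not every gene of the cluster was found in neutrophil-like cells. *Csta1*, the epithelial stefin A gene at the edge of the cluster, had 0 UMIs in both libraries, and *BC117090* had 0 in control and 2 in LIP. The *Gm5483* copy *2010005H15Rik*, looked up after the sequences had been compared, had 0 UMIs in control and 72 in 11 LIP cells, or 44.5 CPM (34.8 to 56.0), a log2 ratio of at least 2.79 by the floor of 3 UMIs. Of those 11 cells 10 also held *Gm5483* (90.9%). Whether these are transcripts of the copy or misassigned reads of *Gm5483* was not tested.

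The members of the cluster were used unevenly from cell to cell. A stefin A UMI was found in 19 of 53 control cells (35.8%) and 179 of 322 LIP cells (55.6%), and the exact intervals of these shares overlapped. Thinned to 1000 UMIs per cell, which left out 0 control and 11 LIP cells, the shares were 24.5% and 47.6%. The 10 cells with the most UMIs held 87.6% of the stefin A UMIs in control and 35.0% in LIP. In LIP 99 cells (30.7%) held at least 2 different stefin A members, 31 (9.63%) at least 3, 6 (1.86%) at least 4, and no cell more than 5, while in control 6 cells (11.3%) held 2 and none more.

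The LIP cells with a stefin A UMI differed in which gene led. *Stfa2l1* was the highest or tied highest member in 93 of the 179 cells, *Gm5483* in 64, *Stfa1* in 13, *BC100530* and *Stfa3* in 3 each, *Stfa2* in 2 and *Gm5416* in 1. Ties went to the first gene in the order *Stfa1*, *BC100530*, *Stfa2*, *Stfa2l1*, *Stfa3*, *Gm5483* and *Gm5416*. A cell with 1 UMI each of *Stfa2* and *Gm5483* was thus counted for *Stfa2*. The cell with the highest sum held 144 UMIs of *BC100530* and 127 of *Gm5483* but 0 of *Stfa1*. The next held 166 UMIs of *Stfa1*, 51 of *Stfa2l1* and 36 of *Stfa2* but 0 of *BC100530*. Another cell, of only 4990 UMIs in all, held 164 of *Gm5483*, 60 of *Stfa2l1* and 2 of *Gm5416*. *Stfa1* and *BC100530* were found together in 1 LIP cell, out of 18 with *Stfa1* and 10 with *BC100530*. That cell held 70 UMIs of *Stfa1* and 15 of *BC100530*. With so few cells of each among 322, no avoidance between the 2 genes can be read from this.

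**Figure D5:**
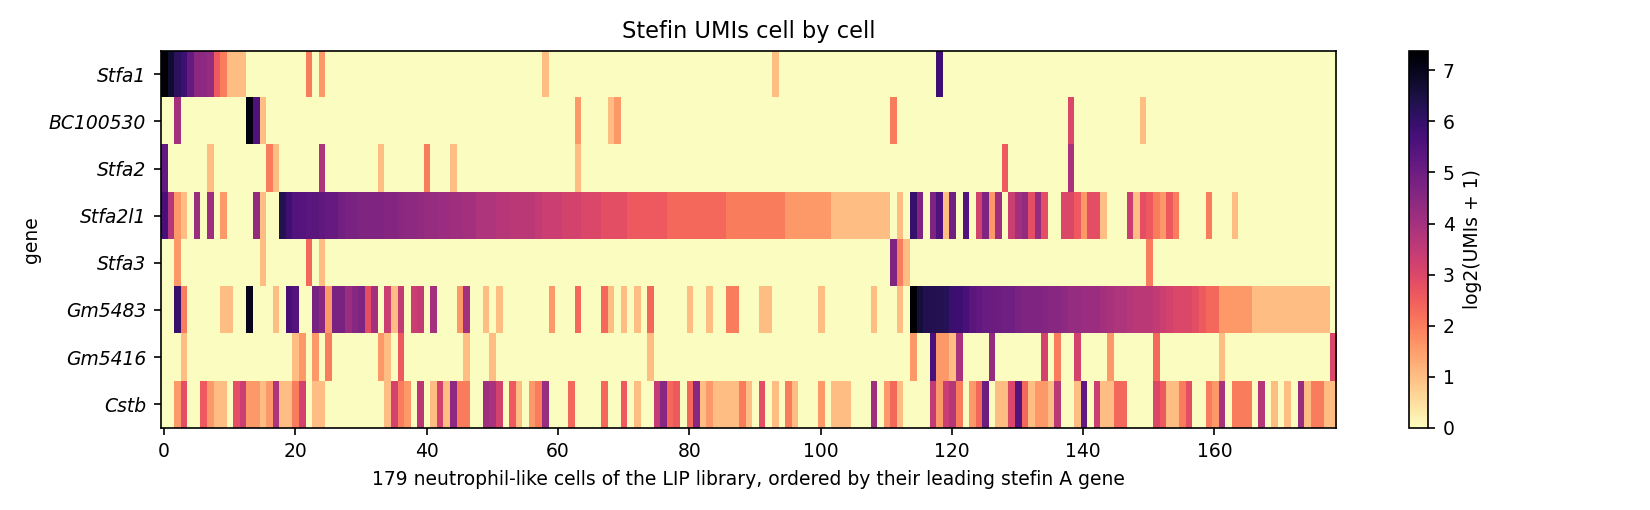
UMIs of each member, as log2(UMIs + 1), in the 179 LIP neutrophil-like cells with a stefin A UMI, 1 column per cell, ordered by the stefin A member with the most UMIs. Ties go to the gene in the upper row. Blocks led by *Stfa2l1* (93 cells) and *Gm5483* (64 cells) fill most of the width, with *Stfa1* and *BC100530* high in a few cells and *Cstb* scattered across all blocks.

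Among stefin A members, *Stfa2l1* and *Gm5483* were the pair most often found in the same cells. In LIP 75 cells held both, 54.7% of the *Stfa2l1* cells and 69.4% of the *Gm5483* cells, and in control 6 cells did, out of 15 with *Stfa2l1* and 7 with *Gm5483*. Across cells the log-normalized levels of this pair gave Pearson's r of 0.474 and Spearman's rho of 0.441 in LIP (322 cells), 0.515 and 0.517 in control (53 cells), and 0.399 and 0.374 in LIP after thinning. Of the 25 *Gm5416* cells 21 held *Gm5483* (84.0%), 20 held *Stfa2l1* and none held *BC100530* or *Stfa3*. *Cstb*, found in most cells, was with *Stfa2l1* in 83 LIP cells and with *Gm5483* in 74, but its r with the stefin A sum was 0.037 in LIP and 0.008 in control. These are descriptions across cells of 1 library, which share their source but differ in depth. In LIP r between the stefin A sum and UMIs per cell was 0.048, and the value for control is not given here.

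Of 976 genes with at least 50 UMIs in the neutrophil-like cells of each library, those with the highest mean r with the stefin A sum over both libraries were *AC110211.1* (0.32), the chemokine gene *Ccl6* (0.31), the calcium-binding protein gene *S100a11* (0.30), the fatty acid hydroxylase gene *Cyp4f18* (0.29) and the mitochondrial ribosome gene *Mrpl33* (0.28). The lowest were *Chil3* (-0.28) and *Ltf* (-0.27), which mark granule-rich neutrophils, and the RNA-binding protein gene *Hnrnpf* (-0.26). All these mean correlations are weak, and for each of these genes r was weaker in LIP than in control. For the genes most like the sum, r was 0.363 to 0.447 in control and 0.108 to 0.229 in LIP. For *Chil3* it was -0.317 and -0.237, for *Ltf* -0.326 and -0.215, and for *Hnrnpf* -0.464 and -0.063. The mean gives the 53 control cells the same weight as the 322 LIP cells, so the ranking leans on the smaller library.

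Neutrophil-like cells fell into 2 sub-clusters, formed without the members. The first, called activated here, was led by *Acod1*, *Ccl3*, *Hcar2*, *Csf3r*, *Nlrp3*, *Hdc*, *Ccrl2*, *Gm5483*, *Il1b* and *Clec4d*, passed 10 of 10 neutrophil markers, and held 30 control and 274 LIP cells. The second, called granule-gene, was led by genes of specific granules such as *Ltf*, *Ngp* and *Camp*, passed 9 markers, and held 23 control and 48 LIP cells. The mix of the sub-clusters thus moved with LIP, and the members are given within each.

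In the activated sub-cluster the stefin A sum was 1384 CPM in control and 3585 CPM in LIP (log2 1.37, 1.15 to 1.60), and 12 of 30 control and 155 of 274 LIP cells had a stefin A UMI. Of the 5 members with at least 50 UMIs 4 were at least 2-fold higher, *Gm5416* by a bound against a control at 0 UMIs. Among all 2098 genes of that kind in this sub-cluster, 11.2% were at least 2-fold higher and 7.77% at least 2-fold lower. The contrast between libraries in neutrophils chose the members, and nothing is read from this count. *Gm5483* was at 406 and 1711 CPM (log2 2.08), *Stfa1* at 71.6 and 250 CPM (log2 1.80) and *Stfa2l1*, which did not reach 2-fold, at 907 and 1420 CPM (log2 0.65, 0.37 to 0.94). *Gm5416* was at 0 UMIs in control and at 142 CPM in LIP, where all 25 of its LIP cells were. *Cstb* was at 390 CPM in control and 1070 CPM in LIP (log2 1.46).

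In the granule-gene sub-cluster the stefin A sum was 410 CPM in control and 1945 CPM in LIP (log2 2.25, 1.99 to 2.51), with a stefin A UMI in 7 of 23 and 24 of 48 cells. Of the 6 members with at least 50 UMIs 4 were at least 2-fold higher, *Stfa1* by a bound against a control at 0 UMIs. Among all 1756 such genes in this sub-cluster, 2.28% were at least 2-fold higher. Here too the contrast chose the members, and nothing is read from the count. The highest *Stfa1* and *BC100530* cells were in this sub-cluster: *Stfa1* was at 0 UMIs in control and 502 CPM in 8 of 48 LIP cells, and *BC100530* at 2.93 CPM in control and 328 CPM in 4 LIP cells. *Stfa2l1* was 1.66 and *Gm5483* 1.62 higher on the log2 scale in LIP, and *Stfa2*, at 84.8 CPM in control and 63.1 CPM in LIP, was not. *Gm5416* was at 0 in both libraries. *Cstb* was at 96.5 CPM in control and 69.4 CPM in LIP, a log2 ratio of -0.48 with an interval that includes 0 (-1.16 to 0.22).

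Set against each other within the LIP library, the sub-clusters differed in the levels of members. Of the stefin A members only *Gm5416* was absent from 1 of them. *Cstb* was 3.95 higher on the log2 scale in the activated cells, *Gm5483* 1.74, *Stfa2l1* 1.53 and *Gm5416* at least 4.91. *Stfa1*, *Stfa3* and *BC100530* were lower in the activated cells, with log2 differences of -1.01, -2.59 and -4.53, resting on the few cells already named. By number of cells *BC100530* was in 6 of 274 activated cells (2.19%) and 4 of 48 granule-gene cells (8.33%). In control the 9 UMIs of *Stfa1* were in 1 activated cell. *Stfa2* was at log2 -0.67 with an interval that just includes 0 (-1.35 to 0.00).

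Outside neutrophil-like cells, *Stfa3* and *Cstb* had levels of their own. *Stfa3* had 0 UMIs in control neutrophil-like cells, where the floor of 3 UMIs is 6.42 CPM. It had 38 UMIs in 28 of 224 control epithelial-like cells (12.5%), at most 4 in a cell, or 6.16 CPM (4.36 to 8.46). This level is below that floor, so these classes cannot be ranked for *Stfa3* in control. In LIP it had 9 UMIs in 6 of 112 epithelial-like cells (5.36%), or 3.50 CPM (1.60 to 6.64), a log2 ratio of -0.82 with an interval that includes 0 (-2.05 to 0.26). After thinning to 1000 UMIs 0.455% of control and 0 LIP epithelial-like cells had a *Stfa3* UMI, a share at the limit of what this depth can show. In control 27 of the 38 UMIs were in 20 of the 115 cells of the suprabasal sub-cluster, which was led by the differentiation keratin genes *Krt6b*, *Krt13* and *Krt4*. Its *Stfa3* level over that of the basal sub-cluster, led by *Col17a1* and *Trp63*, was log2 0.79 in control. The interval of this ratio includes 0 (-0.34 to 2.07). The other 6 stefin A members had 6 UMIs together in control epithelial-like cells and 15 in LIP. Carried over from neutrophil-like cells in the ratio of *S100a8*, free RNA would give 0 of the 38 *Stfa3* UMIs in control epithelial-like cells and 0.499 of the 9 in LIP. The 0 for *Stfa3* was fixed in advance, since control neutrophil-like cells held 0 of its UMIs. For the stefin A sum it would give 1.69 in control, where 44 were counted, and 60.9 in LIP, where 24 were counted. The estimate takes every *S100a8* UMI of epithelial-like cells as carried over, which was not tested. In LIP it exceeds the count of the sum, so it is too high there.

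*Cstb* was found in every class of at least 20 cells in both libraries. In epithelial-like cells it was at 401 CPM (385 to 417) in control, with a UMI in 94.2% of cells, and at 455 CPM (430 to 482) in LIP, with a UMI in 89.3%, a log2 ratio of 0.18 (0.08 to 0.28). The suprabasal sub-cluster had more of it than the basal one led by *Col17a1* and *Trp63*, at 502 against 234 CPM in control and 688 against 244 CPM in LIP. *Csta1* had the same order, at 50.3 against 7.22 CPM in control and 44.7 against 5.63 CPM in LIP. In LIP 1 suprabasal cell held 178 of the 800 *Cstb* UMIs of its sub-cluster, and the 10 highest of 64 cells held 65.9%. In control the highest suprabasal cell held 68 of 1566, and the 10 highest held 32.4%. The interval of the epithelial-like ratio leaves out this spread between cells, so a higher *Cstb* level in LIP is not settled there.

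Macrophage-like cells of the LIP library had the highest *Cstb* level of any class. *Cstb* was at 244 CPM (206 to 287) in control, with 145 UMIs in 33 of 42 cells, and at 1446 CPM (1387 to 1507) in LIP, with 2253 UMIs in 72 of 84 cells. The log2 ratio was 2.57 (2.32 to 2.82), and 8.2% of 4999 genes with at least 50 UMIs were 2-fold or more higher in these cells, 3.7% lower. The highest control cell held 30 UMIs and the highest LIP cell 170, and the 10 highest cells held 64.8% and 50.2% of the UMIs. Stefin A transcripts were nearly absent there, with 0 UMIs in control and 7 in LIP. In the remaining named classes *Cstb* lay between 0 and 180 CPM in control and between 32.5 and 197 CPM in LIP. Vascular endothelial-like cells (log2 0.22, -0.38 to 0.86) and mesenchymal-like cells (log2 0.07, -0.22 to 0.35) had intervals that include 0.

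Lysosomal cysteine proteases were examined as a list of 11 genes chosen for their function, 10 of them cathepsins, the family that stefins bind, and the other legumain, which stefins do not inhibit. In neutrophil-like cells 6 of the 11 had at least 50 UMIs, 4 of those were at least 2-fold higher in LIP and none 2-fold lower, with a median log2 ratio of 1.33, beside 12.2% higher and 3.06% lower among all genes. Within the activated sub-cluster 3 of 5 were at least 2-fold higher (median 1.14), beside 11.2% of all genes, and within the granule-gene sub-cluster 0 of 3 (median 0.11), beside 2.28%. The count over the class thus also holds the change in the mix of sub-clusters. *Ctsb*, the most abundant in LIP, was at 83.4 CPM in control and 418 CPM in LIP (log2 2.32, 1.86 to 2.83), with log2 ratios of 2.33 in activated and 0.11 in granule-gene cells. *Ctsz* was at 128 and 337 CPM (log2 1.39), *Ctsl* at 42.8 and 103 CPM (log2 1.26) and *Ctss*, on 5 control UMIs, at 10.7 and 41.4 CPM (log2 1.95). *Ctsc* had a log2 ratio of 0.68 and *Ctsh*, an aminopeptidase, of -0.53, both with intervals that include 0.

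Other inhibitors and state genes are given for the same cells. Of 6 other leukocyte protease inhibitors 4 had enough UMIs, and 2 were at least 2-fold higher, *Slpi* (log2 1.48), which blocks neutrophil elastase, and *Wfdc17* (log2 1.22), while *Wfdc21* (-0.97) and *Serpinb1a* (-0.28) were lower by less than 2-fold. Within the activated sub-cluster 1 of 3 was at least 2-fold higher and 1 at least 2-fold lower, beside 11.2% and 7.77% of all genes. Within the granule-gene sub-cluster 0 of 4 were higher and 1 lower by as much, beside 2.28% and 0.683%. *Wfdc17* was at 2108 CPM in control and 3550 CPM in LIP in activated cells, and at 550 and 262 CPM in granule-gene cells. Of 9 other cystatins only the secreted cystatin C gene *Cst3* had 50 UMIs, with a log2 ratio of 0.57. All 10 activated neutrophil genes were at least 2-fold higher in LIP (median 2.29), and of 8 granule genes none was higher and 3 were at least 2-fold lower (median -0.93), again beside 12.2% higher and 3.06% lower among all genes. Part of this difference was also found within the sub-clusters. In the activated one, 6 of 10 activated genes were at least 2-fold higher (median 1.31) and 3 of 4 granule genes at least 2-fold lower (median -2.33). Among all genes of that sub-cluster 11.2% were higher and 7.77% lower by as much. In the granule-gene one, 1 of 4 activated genes was at least 2-fold higher and 0 of 8 granule genes lower, beside 2.28% higher and 0.683% lower among all its genes. The state of the cells thus differed between the libraries along with the members, and the values within sub-clusters do not hold it fixed. Its part in the difference of the members was not tested.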

How the data were processed

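The authors prepared 3′ v3 libraries of periodontal cells and aligned and counted the reads against mm10 with Cell Ranger (3.0 in the methods, 3.1.0 in the matrix headers). The deposited values are whole UMI counts for each gene in each barcode and were not normalized. The 8 members, the gene lists and the alternatives were chosen with earlier results of these data known.

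Barcodes with 200 to 7500 genes, at most 60000 UMIs and at most 10% mitochondrial UMIs were kept, 75.5% in control and 77.2% in LIP. Cells were integrated and clustered with Seurat 5.3.0 (2000 variable genes, from which the members were removed, 30 dimensions, resolution 0.1, sub-clusters at 0.2) in R 4.3.3, in place of the version of the study. Clusters were named by the marker list with most genes among them, each found in 25% of its cells and 2-fold above the rest, and needed 3. This left 62 control and 56 LIP cells unnamed. Scrublet marked 0.453% and 0.107% of cells as doublets, which were retained in the main setting.

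UMIs were summed per class and library, with exact Poisson, Clopper-Pearson and conditional ratio intervals (scipy 1.17.1). A level of 0 was replaced by a floor of 3 UMIs in a bound. A 2-fold threshold was read only for genes with 50 UMIs. Named genes were all members, genes of the fixed lists, the 5 genes most like the stefin A sum and the 3 least like it. The ratio and its interval were tested on simulated gene totals of genes with many UMIs. That simulation held no cells, so it does not cover genes whose UMIs lie in a few cells. The binomial interval and the thinning were also tested on simulated counts. Other alternatives were thinning, another weighting of cells, other cell filters, and leaving out the cells with the most UMIs.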

Additional observations from a re-analysis of the deposited data

Results flagged for a closer look

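The point values of *Stfa3* had opposite signs in 2 cell classes. Its log2 ratio of LIP over control was at least 1.91 in neutrophil-like cells, against a control at 0 UMIs, and -0.82 in epithelial-like cells, where it rested on 38 control and 9 LIP UMIs. Of its 39 UMIs in LIP neutrophil-like cells 24 were in 1 cell, without which the bound was log2 0.53. The difference between the classes was not tested, and the epithelial interval includes 0.

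Barcodes outside the filters also held stefin A transcripts. In the LIP library 41 stefin A UMIs were in 18 of the 276 barcodes left out, 24 of them from *Gm5483* and 11 from *Stfa2l1*, and in the control library 11 were in 6 of 286.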

How the results depend on the processing

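The stefin A sum was higher in LIP neutrophil-like cells under all 15 alternatives, of which leaving out the 10 cells with the most UMIs takes 87.6% of the control UMIs but 35.0% of the LIP UMIs and so favours a higher ratio by construction. From log2 2.13, it moved to 2.32 with 15 dimensions, 1.73 with each cell weighing the same, 1.65 with cells thinned to 1000 UMIs, 1.95 with the members, *S100a8* and *S100a9* out of the total, 1.37 within the activated sub-cluster, 1.45 with the same sub-cluster mix in both libraries, 4.38 without the 10 cells of each library with the most UMIs, and 2.49 without the top cell (added after the data were seen). Counting *Stfa3* by its bound, 7 of the 8 members were at least 2-fold higher and none 2-fold lower. Of all genes with at least 20 UMIs, 12% were higher and 6.3% lower by as much. Within the activated sub-cluster 4 of the 5 members with at least 50 UMIs were 2-fold higher, beside 11.2% of all genes higher and 7.77% lower. Without the 10 top cells of each gene 3 members were 2-fold higher, and no share over all genes is given for that setting. The contrast of LIP over control in neutrophils chose the members, and nothing is read from these counts. *Cstb* turned to -0.48 within the granule-gene sub-cluster, and *Stfa2* was higher under 4 of 13 alternatives and lower under 9. Without the 10 top cells the bounds of *Stfa1*, *Gm5416* and *Gm5483*, each against a control at 0 UMIs, were 0.17, 0.88 and 6.52, and *Stfa2l1* was at 5.15. Only 7 control cells held *Gm5483* and 15 held *Stfa2l1*, against 108 and 137 in LIP. Removing 10 cells per library thus favours a higher ratio of both genes by construction. The members other than *Cstb* and *Stfa2* kept their direction under every alternative that gave a value. The neutrophil-like share of LIP stefin A UMIs, 93.3%, was 96.1% with the members in the clustering, 96.4% at a mitochondrial limit of 5% and 98.8% by a per-cell marker vote. The share of LIP cells with a stefin A UMI was 47.6% after thinning to 1000 UMIs. The depth of 467556 UMIs in control neutrophil-like cells puts the floor of 3 UMIs at 6.42 CPM. Protein sequences were not compared. No paired analysis was possible because each group had 1 library.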

Other observations

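The higher level of *Cstb* in LIP macrophage-like cells stood beside other proteases and inhibitors. *Ctsk*, the collagen-degrading cathepsin of osteoclasts, had 2 UMIs in control and 332 in LIP macrophage-like cells (log2 5.98, 4.12 to 9.04), but these were in 20 of 84 cells, 1 of which held 161. *Ctsl* was at 168 and 586 CPM (log2 1.80), and of 8 genes of the cathepsin list with 50 UMIs these were the 2 at least 2-fold higher and none was lower by as much, beside 8.2% higher and 3.7% lower among all genes of the class. *Slpi* was at 48.8 CPM in control and 1385 CPM in LIP, and *Cst3*, which encodes the secreted cystatin C, at 7005 and 2948 CPM (log2 -1.25, -1.31 to -1.19). The neutrophil granule enzyme genes *Prtn3* and *Ctsg*, which encode serine proteases, and *Mpo*, which encodes myeloperoxidase, were also higher in this class, *Ctsg* and *Mpo* at least 17.5-fold and 15.9-fold above a control at 0 UMIs. The number of cells that held *Slpi*, *Prtn3*, *Ctsg* and *Mpo* is not given here. Their values are for the class as a whole and may rest on few cells. The part of these genes in the *Cstb* difference was not tested.

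Some cells without a class name carried stefin A transcripts. In a cluster led by histone and cell cycle genes, 4 control cells whose markers were mostly those of neutrophils held 19 UMIs of *Stfa1*, 3 of *BC100530* and 4 of *Stfa2l1*, all in 2 of the 4 cells and 18 of the 19 in 1 cell, with 6505 of the granule gene *Ngp* and 67 of the proliferation gene *Mki67*. A single LIP cell there, of 55168 UMIs, held 60 of *Stfa1*, 41 of *Gm5483* and 38 of *Stfa2l1* with 60 of *Mki67*. Of 29 shallow LIP cells of neutrophil markers, at a median of 764 UMIs, 16 held 139 stefin A UMIs, 81 from *Stfa2l1* and 53 from *Gm5483*. With classes set by a per-cell marker vote, which takes in these cells, the log2 ratio of *Stfa1* was 2.80 in place of 4.18.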
